A study of Mus musculus with 12 samples.

Results

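The alcohol dehydrogenase (Adh), aldehyde dehydrogenase (Aldh) and aldo-keto reductase (Akr) genes were followed across the 12 mouse tumors of the series. Members were taken by name, as genes whose symbol starts with Adh, Aldh or Akr followed by a digit, with Aldh6a1 left out. The rule gave 42 of 22630 genes, 6 Adh, 19 Aldh and 17 Akr. The families were selected on measured values in so far as the study had listed Adh5 and Akr1a1 for their difference between plus-dox and no-dox tumors, and that listing led to the choice. The levels of both genes are therefore given as a description, without a test.

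These enzymes handle reactive alcohols, aldehydes and ketones. Alcohol dehydrogenases oxidize alcohols to aldehydes with NAD+, aldehyde dehydrogenases oxidize aldehydes further to carboxylic acids, and aldo-keto reductases run in the opposite sense, reducing carbonyl groups to alcohols with NADPH. Between them they clear ethanol, formaldehyde, sugar aldehydes and the aldehydes of lipid peroxidation, make retinoic acid from retinol, and convert steroids and prostaglandins.

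The tumors grew under the skin of NSG mice, 8 to 10 weeks old, after injection of KCip53-1 cells. KCip53-1 is a single mouse pancreatic cancer line from an animal with Ptf1a-Cre, TREp53R270H and R26rtTa among its alleles, so all groups carry a mutant p53 transgene that doxycycline (dox) switches on, Cre having been driven in the pancreatic epithelium. The line was sorted for dsRed, and the study describes its wild-type p53 as lost. The no-dox group (n = 4) received no dox, the plus-dox group (n = 4) drank 0.2 g/l dox in 5% sucrose for 36 days, and the off-dox group (n = 4) drank it for 33 days followed by 3 days without. The mice were implanted with a pair of tumors each, and the labels do not say which came from 1 mouse, so p-values measure the spread between tumors and are too small if those of a group shared a mouse. RNA came from whole tumors with their host cells, and in such bulk samples fewer cells of a type and less RNA per cell cannot be told apart. Counted reads ran from 19845923 to 33137609 per tumor. Trp53 RNA ran from 40.1 to 57.4 RPKM in the no-dox group, 40.4 to 56.0 with dox and 41.6 to 45.4 after withdrawal, so it did not separate the groups and gave no check of the labels. The share of mapped reads that fell on genes was 88.4% to 89.4% in the no-dox group, 82.2% to 87.1% in the plus-dox group and 81.1% to 85.8% in the off-dox group. This share separates the no-dox tumors from the rest, and its part in the differences below was not tested. The epithelial marker Epcam was lowest in plus-dox tumor 2 (7.76 RPKM) and off-dox tumor 4 (40.9 RPKM), against 72.3 to 388 RPKM in the other 10. The same tumors were the 2 lowest in Elf3, Cldn7, Krt7, Muc1, Esrp1 and Cdh1. Krt19, Grhl2, Cldn4, Krt8 and Krt18 had another order. Krt8 and Krt18 were lowest in off-dox tumor 3 (318 and 391 RPKM). So was the sum of the 12 epithelial markers (1115 RPKM, against 1368 in plus-dox tumor 2 and 1584 in off-dox tumor 4). Plus-dox tumor 2 and off-dox tumor 4 were also at the extremes of several members, so results are given with and without them.

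Levels are in RPKM, reads scaled to exon length and to the total of mapped reads, which allows genes of different length to be compared. Of the 42 members, 33 had a mean over 0.25 RPKM across the 12 tumors and are called expressed, namely 3 Adh, 18 Aldh and 12 Akr genes. The lowest of them was Aldh3b2 (0.281 RPKM) and the next gene below the limit was Akr1c20 (0.0768 RPKM). The mean levels added up to 1000.4 RPKM, of which the Akr family held 677, the Aldh family 261 and the Adh family 62.3 RPKM. Each family was carried by a single gene. Akr1a1, aldehyde reductase, gave 63.0% of the Akr sum and 42.6% of the sum of all members, with a mean of 426 RPKM. Aldh2, the mitochondrial enzyme that oxidizes acetaldehyde, gave 50.8% of the Aldh sum (mean 133 RPKM). Adh5, which oxidizes the glutathione adduct of formaldehyde and also reduces S-nitrosoglutathione, gave 90.8% of the Adh sum (mean 56.6 RPKM). The next in order were Akr1b3 (68.7 RPKM), the aldose reductase of the polyol pathway, Akr1b8 (47.5 RPKM), Akr1c13 (36.3 RPKM) and Akr1c19 (27.5 RPKM). The plot of levels shows that Aldh2 and Akr1a1 did not overlap in any tumor, whereas the ranges of Akr1b3, Adh5 and Akr1b8 overlapped.

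**Figure D1:**
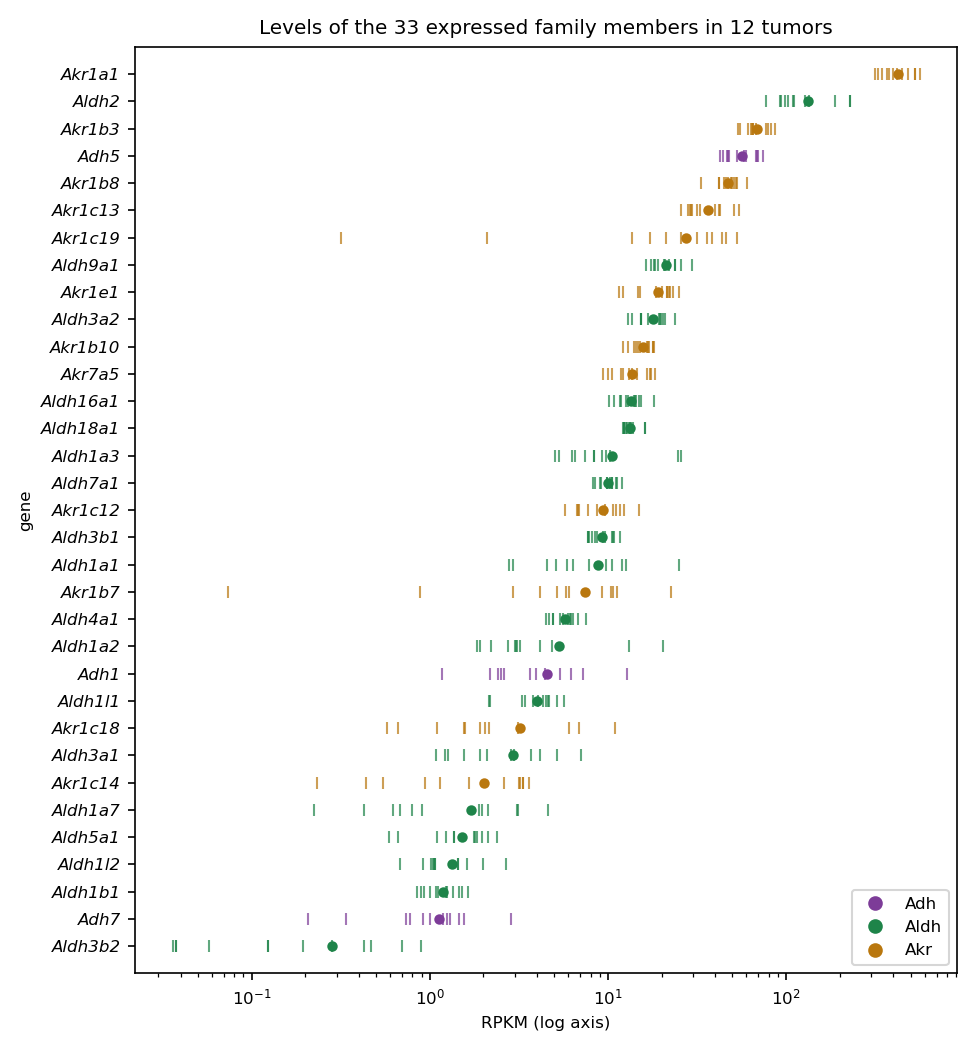
RPKM (log axis) of the 33 expressed members, ordered by mean. Each tick is 1 of the 12 tumors, each dot the mean, and color gives the family. Akr1a1 lies above all others, and Akr1c19 and Akr1b7 each have 2 tumors far below the rest.

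The other 9 members were not expressed by this limit, namely Adh4, Adh6a and Adh6-ps1, Aldh8a1, and Akr1c6, Akr1c20, Akr1c21, Akr1cl and Akr1d1. Several of them, such as Adh4 and Akr1d1 (the bile acid 5-beta-reductase), are known from the liver. Akr1c6 had 0 counts in all 12 tumors, which allows up to 3 counts per library, and no other member stayed at 0 throughout.

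Most members lie in clusters of the genome (mm9 coordinates), which is relevant to the patterns across tumors. Chromosome 13 holds Akr1c14 (chr13:4058837-4089668), Akr1c18, Akr1c13, Akr1c19 (chr13:4232986-4247605), Akr1c12, Akr1c6, Akr1c20, Akr1c21 and Akr1e1 (chr13:4591736-4608410) in this order. Chromosome 6 holds Akr1b3, Akr1b8, Akr1b10 and Akr1b7 (chr6:34362362-34373137), and chromosome 3 holds Adh7, Adh1, Adh6a, Adh6-ps1, Adh4 and Adh5 (chr3:138106128-138118463). Aldh3a1 (chr11:61022244-61031918) neighbours Aldh3a2, Aldh3b1 neighbours Aldh3b2 and Aldh1a1 neighbours Aldh1a7, while Akr1a1 (chr4:116309115-116324256) lies on its own.

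Promoter windows of RefSeq (GRCm38.p6, 250 bases before to 50 after the start) were found for 33 of the 42 members. Those of 4 are shown, limited to the 250 bases before the start and read along the gene, with CG dinucleotides in capitals. Akr1a1 and Adh5 are shown as the abundant members that the study had listed, and Akr1b7 and Akr1c19 as the members that varied most between tumors. They lie at chr4:116651675-116651924 (minus strand), chr3:138442843-138443092, chr6:34412112-34412361 and chr13:4233490-4233739 (plus strand).
Akr1a1: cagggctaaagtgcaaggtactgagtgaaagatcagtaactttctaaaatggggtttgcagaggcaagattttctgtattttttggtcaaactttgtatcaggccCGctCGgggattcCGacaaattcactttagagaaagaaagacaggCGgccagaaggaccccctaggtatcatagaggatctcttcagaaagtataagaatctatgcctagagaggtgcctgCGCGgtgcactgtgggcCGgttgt
Adh5: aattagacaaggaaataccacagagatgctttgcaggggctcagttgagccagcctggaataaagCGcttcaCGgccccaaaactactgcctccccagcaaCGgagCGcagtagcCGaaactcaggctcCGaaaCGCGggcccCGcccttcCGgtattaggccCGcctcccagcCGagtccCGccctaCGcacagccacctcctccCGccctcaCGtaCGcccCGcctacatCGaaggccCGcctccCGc
Akr1b7: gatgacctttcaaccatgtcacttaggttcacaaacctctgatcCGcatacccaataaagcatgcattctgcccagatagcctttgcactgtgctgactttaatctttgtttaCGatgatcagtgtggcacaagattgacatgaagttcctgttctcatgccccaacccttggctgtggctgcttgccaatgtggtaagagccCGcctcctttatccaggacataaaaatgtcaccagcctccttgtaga
Akr1c19: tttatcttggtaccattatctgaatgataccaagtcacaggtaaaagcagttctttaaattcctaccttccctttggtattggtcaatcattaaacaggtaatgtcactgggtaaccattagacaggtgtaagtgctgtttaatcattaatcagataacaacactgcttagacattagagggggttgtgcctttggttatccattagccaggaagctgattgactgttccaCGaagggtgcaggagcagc

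The Adh5 stretch holds 21 CG and that of Akr1a1 7, against 3 in Akr1b7 and 1 in Akr1c19. Adh5 has another window in the table, not shown, with 2 CG, and the window with more CG was used for each gene. Over all 32851 windows of the table, the median was 6 CG and 37.8% held at least 10. Shares over all windows, here and for the letters below, count windows, expressed genes or not, whereas members are counted by gene. By gene, 8 members, all expressed, held at least 10 CG and 18 other expressed members held fewer. Of all expressed genes with a window, 7460 held at least 10 and 2725 fewer. The median SD over the 12 tumors, in log2 CPM (counts scaled to library size), was 0.26 for the 8 members and 0.43 for the 18. The same medians over all expressed genes with a window were 0.23 (7460 genes) and 0.41 (2725 genes). An SD over 0.5 was found for 25.0% of the 8 members and 11.5% of all genes with at least 10 CG, and for 44.4% and 39.6% of those with fewer. The members with at least 10 CG and such an SD were Aldh1a2, with 40 CG and an SD of 1.07, and Aldh5a1, with 17 CG and an SD of 0.61. The letters TATAAA, a core promoter element, were found on either strand in a window of 6 members, for Adh5 in the one not shown (12.4% of all windows). The letters TGACNNNGC, the core of the antioxidant response element, were found in those of 4 members, Aldh9a1, Aldh1a2, Adh6a and Akr1cl (10.2% of all windows).

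The first comparison sets the plus-dox against the no-dox tumors. Induction of mutant p53 and exposure to dox itself cannot be told apart in it. Whether the no-dox mice drank sucrose is not stated, and its part was not tested. Of the 42 members, 37 had at least 10 counts in all and were tested, or 35 with the listed Adh5 and Akr1a1 set aside. Relative to no-dox tumors, 27 of these 35 had a log2 fold change below 0 in plus-dox tumors, against 48.6% of the 17561 genes tested. The median log2 fold change of the 35 was -0.24, against 0.01 over all genes. By edgeR's quasi-likelihood test no member passed the limits (adjusted p under 0.1 and over 1.5-fold), and neither did any other gene (0%). An unadjusted p under 0.05 was found for 4 of the 35 and for 2400 genes (13.7%), and DESeq2 called 0 members and 90 genes. Adh5, Akr1a1, Akr1e1 and Aldh9a1 had every plus-dox tumor below every no-dox tumor in RPKM, where 3.46% of all genes did so. Since Adh5 and Akr1a1 were listed for this difference, 2 of 35 remain to be read against that share. No member lay above without overlap (4.3% of all genes).

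The second comparison sets the off-dox against the no-dox tumors, 3 days after dox was withdrawn. Here 26 of the 35 members were below 0, against 49.3% of all genes, with a median log2 fold change of -0.28 against 0.01. Aldh3a1 passed the limits and was lower (1 of 37, against 1.34% of all genes in either direction and 0.307% in the lower direction). The number of genes called without 1 tumor ran from 0 to 789. Of the members, 9 (24.3%) were lower in RPKM without overlap, where 6.4% of all genes were, and none was higher (4.99% of all genes). With Adh5 and Akr1a1 set aside, 7 of 35 did so. An unadjusted p under 0.05 was found for 10 of the 35 and for 20.4% of all genes, and no member was called higher (1.03% of all genes). Both comparisons share the no-dox tumors and so are not separate evidence. The members without overlap depended on the scale. In CPM with edgeR's TMM factors, which leave reads outside genes aside, 6 of 37 were lower in plus-dox (4.49% of all genes), with Adh7 and Aldh4a1 added, and 6 were lower in off-dox tumors (5.69% of all genes), with Akr1b3, Akr1b8 and Akr1e1 lost. Without Adh5 and Akr1a1 these are 4 of 35 in each. None was higher in either (4.37% and 5.85% of all genes).

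Of the alcohol dehydrogenases, Adh5 had 69.1, 74.7, 69.9 and 67.9 RPKM in no-dox tumors 1 to 4. It had 59.4, 46.4, 47.1 and 52.8 RPKM in the plus-dox tumors and 57.9, 44.0, 42.4 and 47.7 RPKM in the off-dox tumors. All 8 dox-exposed tumors were thus below the lowest no-dox tumor, and the 2 dox groups overlapped. The means were 70.4 ± 2.97, 51.4 ± 6.01 and 48.0 ± 6.97 RPKM (SD, n = 4 each), with log2 fold changes of -0.45 for plus-dox and -0.52 for off-dox against no-dox tumors. Adh1, which oxidizes ethanol and retinol, ran from 2.42 to 12.8, 2.61 to 5.40 and 1.17 to 6.22 RPKM without dox, with dox and after withdrawal. Its groups overlapped, and its log2 fold changes of -0.68 ± 0.54 and -1.10 ± 0.55 (SE) had adjusted p-values of 0.57 and 0.28 in edgeR. Adh7, a retinol and ethanol oxidizing enzyme of the upper digestive tract, had 1.70 ± 0.77, 0.83 ± 0.39 and 0.87 ± 0.56 RPKM without dox, with dox and after withdrawal (SD, n = 4 each), with log2 fold changes of -1.04 ± 0.53 and -0.96 ± 0.53 (SE; adjusted p = 0.40 and 0.32, edgeR).

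Akr1a1, which in mice also serves the synthesis of ascorbate, had 532, 532, 563 and 487 RPKM in no-dox tumors 1 to 4. It had 446, 398, 345 and 376 RPKM in the plus-dox tumors and 419, 330, 317 and 371 RPKM in the off-dox tumors. Again no dox-exposed tumor reached the lowest no-dox tumor. The means were 528 ± 31.2, 391 ± 42.5 and 359 ± 46.0 RPKM (SD, n = 4 each), with log2 fold changes of -0.43 and -0.53 against no-dox tumors. The sum of the remaining Akr genes was 293 ± 27.7, 227 ± 32.8 and 231 ± 37.2 RPKM in the same order of groups (SD, n = 4 each). The sum of all members was 1180.1 ± 71.1, 937 ± 104 and 884 ± 138 RPKM. Both listed genes enter this last sum, and the sums of the remaining Akr genes overlapped between groups.

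Of the other aldo-keto reductases, Akr1b3, Akr1e1 and Akr1b8 did not overlap between off-dox and no-dox tumors in RPKM. Akr1b3 had 78.5 ± 9.30, 66.1 ± 9.84 and 61.3 ± 4.34 RPKM without dox, with dox and after withdrawal (SD, n = 4 each). Its log2 fold change of -0.32 ± 0.11 (SE) in off-dox against no-dox tumors did not pass the limits (adjusted p = 0.14, edgeR), and reads of this gene are uncertain because 65.2% of the 50-base stretches of its transcripts also occur in the annotated gene Gm6736. Akr1e1, which reduces 1,5-anhydrofructose from glycogen breakdown, had 22.0, 23.3, 25.0 and 22.4 RPKM in no-dox tumors. It had 21.6, 12.2, 14.7 and 20.0 RPKM with dox and 21.4, 18.7, 15.2 and 11.5 RPKM after withdrawal. The highest tumor of each dox group lay just under the lowest no-dox tumor, and the log2 fold changes of -0.44 ± 0.19 and -0.45 ± 0.19 (SE) did not pass the limits (adjusted p = 0.35 and 0.21, edgeR). Akr1b8, a reductase of retinal and lipid aldehydes, had 53.3 ± 4.77, 45.4 ± 5.27 and 43.8 ± 7.17 RPKM without dox, with dox and after withdrawal (SD, n = 4 each), with an adjusted p of 0.34 in edgeR for off-dox against no-dox tumors.

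Among the aldehyde dehydrogenases, Aldh9a1 and Aldh4a1 passed the limit on the adjusted p but not that on the fold in off-dox against no-dox tumors. Aldh9a1, which works in carnitine synthesis, had 23.9, 29.5, 25.8 and 23.7 RPKM in no-dox tumors 1 to 4. It had 22.0, 19.2, 18.1 and 20.8 RPKM with dox and 20.9, 17.4, 16.3 and 18.4 RPKM after withdrawal, all below the no-dox range. Its log2 fold change was -0.35 ± 0.10 (SE) in plus-dox tumors (adjusted p = 0.32, edgeR) and -0.47 ± 0.10 (SE) in off-dox tumors (adjusted p = 0.083, edgeR). Aldh4a1, which completes proline breakdown, had 6.66 ± 0.69, 5.67 ± 0.73 and 4.94 ± 0.37 RPKM without dox, with dox and after withdrawal (SD, n = 4 each). Its log2 fold change of -0.40 ± 0.11 (SE) in off-dox tumors had an adjusted p of 0.097 in edgeR. Aldh18a1, which acts in the reverse direction in proline synthesis, had 13.7 ± 1.76, 13.3 ± 0.41 and 13.2 ± 1.95 RPKM (SD, n = 4 each) and the smallest SD of all members (0.15 in log2 CPM). Aldh3a2, the fatty aldehyde dehydrogenase, had 19.9 ± 3.58, 17.3 ± 3.25 and 16.3 ± 2.86 RPKM (SD, n = 4 each), and its groups overlapped, with log2 fold changes of -0.20 ± 0.16 and -0.26 ± 0.16 (SE; adjusted p = 0.56 and 0.36, edgeR).

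Aldh3a1, a cytosolic enzyme for aldehydes of lipid peroxidation that is abundant in the cornea, was the member that fell by the limits used. It had 7.05, 2.85, 2.97 and 3.72 RPKM in no-dox tumors 1 to 4. It had 4.15, 1.91, 1.55 and 5.17 RPKM with dox and 1.27, 1.22, 2.11 and 1.09 RPKM after withdrawal. Every off-dox tumor was below every no-dox tumor, whereas the plus-dox tumors spanned both ranges. The log2 fold change in off-dox against no-dox tumors was -1.51 ± 0.41 (SE; adjusted p = 0.097, edgeR), and -1.50 in DESeq2 without moderated fold changes (adjusted p = 0.010). The edgeR call was lost on leaving out any of the 4 no-dox tumors, plus-dox tumor 1, 3 or 4, or off-dox tumor 2, 3 or 4, with adjusted p-values between 0.107 and 0.231, although the log2 fold change stayed between -1.75 and -1.15. It was also lost at an adjusted p limit of 0.05, without a filter on counts (adjusted p = 0.107), in a fit of the 8 tumors alone (0.143) and with a replicate block (0.159). Of 9 keratinocyte markers, 8 had enough counts to test, and 5 of these were below 0 in off-dox against no-dox tumors. Krt14 was called lower (log2 fold change -1.72 ± 0.43 SE, adjusted p = 0.090, edgeR), while Ivl, Lor and Krt10 had log2 fold changes of 0.70, 0.51 and 0.19. In plus-dox against no-dox tumors, where Aldh3a1 was not called, 7 of the 8 were below 0 and 0 were called. The summed level of the 9 was 21.1 to 52.8, 10.8 to 26.2 and 12.2 to 21.1 RPKM without dox, with dox and after withdrawal. Krt14 alone had 14.4 to 47.7, 4.25 to 18.7 and 6.82 to 11.5 RPKM in the same order, so in most tumors the sum was mainly Krt14. Krt5 did not exceed 0.894 RPKM and was at 0 in 3 plus-dox tumors and 1 off-dox tumor, and Krt1 was at 0 in 8 of the 12. The part of skin cells in the Aldh3a1 difference was not tested.

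**Figure D2:**
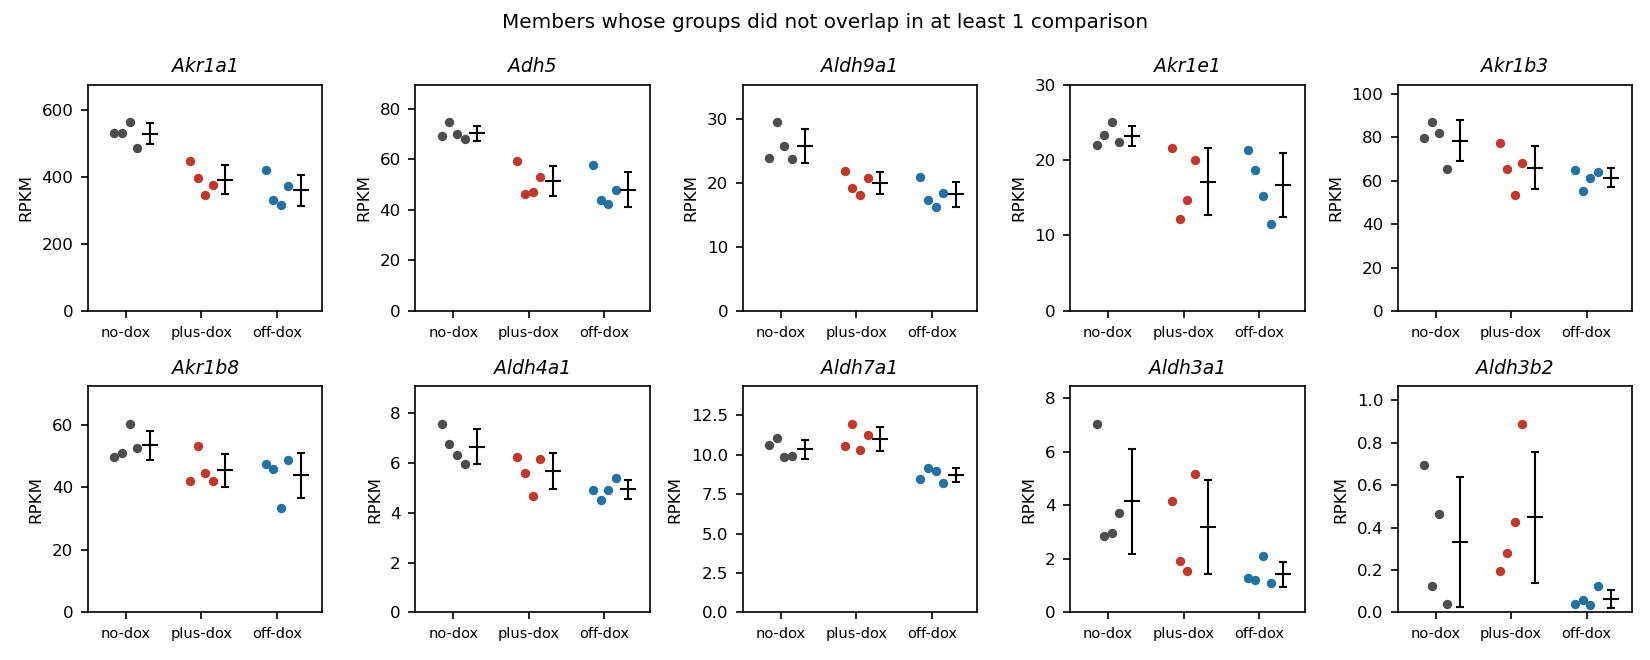
RPKM of the 10 members whose groups did not overlap in at least 1 of the 3 comparisons, axes from 0. Dots are tumors (4 per group) and the bar is the mean with its SD. Akr1a1 and Adh5 lie lower in all 8 dox-exposed tumors, and Aldh7a1 is lower only in the off-dox tumors.

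The third comparison, off-dox against plus-dox, asks what changed within 3 days of withdrawal. No member and no other gene passed the limits in edgeR (0% of 17561), with 4 members and 537 genes (3.06%) at an unadjusted p under 0.05, and DESeq2 with moderated fold changes called 0 members and 4 genes. Of 37 members, 2 were lower without overlap (0.934% of all genes) and 0 higher (0.552%), the same numbers as in TMM CPM (0.752% and 0.649% of all genes). Below 0 were 25 of the 35 members, against 50.1% of all genes. Aldh7a1, an enzyme of lysine breakdown, had 10.6, 11.1, 9.82 and 9.89 RPKM in no-dox tumors 1 to 4. It had 10.5, 12.0, 10.3 and 11.3 RPKM with dox and 8.43, 9.12, 8.98 and 8.21 RPKM after withdrawal. The off-dox tumors were thus the 4 lowest of the 12, while plus-dox and no-dox tumors overlapped. Its log2 fold change was -0.32 ± 0.08 (SE) against plus-dox and -0.22 ± 0.08 (SE) against no-dox tumors, and neither passed the limits (adjusted p = 1 and 0.16, edgeR). Part of its transcript (4.72% of 50-base stretches) is shared with Phax. Aldh3b2, close to Aldh3b1 in sequence, had 10, 20, 34 and 49 counts in the plus-dox tumors and 2, 3, 2 and 8 in the off-dox tumors. The no-dox tumors held 51, 8, 29 and 3 counts and spanned both, and with so few reads the difference from plus-dox tumors (log2 fold change -2.72 ± 0.84 SE) did not pass the limits (adjusted p = 1, edgeR). Aldh1l2, the mitochondrial enzyme that oxidizes formyl-tetrahydrofolate, had a log2 fold change of 0.81 ± 0.30 (SE) in plus-dox against no-dox tumors and -0.69 ± 0.30 (SE) in off-dox against plus-dox tumors (adjusted p = 0.33 and 1, edgeR). Its levels were 1.06 ± 0.31, 1.82 ± 0.69 and 1.13 ± 0.22 RPKM without dox, with dox and after withdrawal (SD, n = 4 each), with overlap in both comparisons.

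The members varied more from tumor to tumor than expressed genes did at the median. The median SD of log2 CPM over the 12 tumors was 0.42 for the 33 expressed members, against 0.27 for 14548 expressed genes. Of them, 7 (21.2%) exceeded 1, as did 5.80% of all expressed genes. Akr1c19, a member of the hydroxysteroid dehydrogenase cluster, had 36.1, 53.2, 25.8 and 38.5 RPKM in no-dox tumors 1 to 4. It had 43.5, 0.32, 13.7 and 31.8 RPKM with dox and 46.1, 21.1, 17.2 and 2.09 RPKM after withdrawal. The drop in plus-dox tumor 2 and off-dox tumor 4 gave it the largest SD of all members (2.11). Akr1b7, known from the vas deferens and adrenal gland, was at 5.79 to 22.7 RPKM in no-dox tumors, at 0.073 RPKM (3 counts) in plus-dox tumor 2 and at 0.88 RPKM in off-dox tumor 4. The other 6 dox-exposed tumors had 2.92 to 11.2 RPKM of it. Akr1c14, a 3-alpha-hydroxysteroid dehydrogenase, had 1.65 to 3.34 RPKM in no-dox tumors, 0.44 RPKM in plus-dox tumor 2 and 0.23 RPKM in off-dox tumor 4, with 0.54 RPKM in off-dox tumor 2. None of the 3 genes passed the limits in any comparison, with log2 fold changes of -0.79 ± 0.94, -1.21 ± 0.92 and -0.39 ± 0.73 (SE) in plus-dox against no-dox tumors (adjusted p = 0.70, 0.54 and 0.81, edgeR).

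In the same 2 tumors other members were at their highest. Aldh1a2, a retinal dehydrogenase that makes retinoic acid, had 3.02, 2.22, 3.10 and 1.91 RPKM in no-dox tumors. It had 4.84, 13.1, 1.85 and 2.76 RPKM with dox and 4.15, 3.06, 3.21 and 20.5 RPKM after withdrawal. Plus-dox tumor 2 and off-dox tumor 4 were thus alone above 5 RPKM, and the log2 fold change of off-dox against no-dox tumors went from 1.65 ± 0.72 (SE; adjusted p = 0.22, edgeR) to 0.46 without them. Aldh1a3, which makes retinoic acid in epithelia, had 25.6 RPKM in plus-dox tumor 2 and 24.7 in off-dox tumor 4, against 5.06 to 10.3 RPKM in the other 10. Aldh2 had 228 and 229 RPKM in them, against 77.3 to 189 RPKM in the others. Its groups overlapped (off-dox against no-dox log2 fold change -0.15 ± 0.38 SE, adjusted p = 0.85, edgeR), whereas without the 2 tumors it was called lower (-0.66, adjusted p = 0.082, edgeR). That call is no separate support, since the 2 tumors left out were the ones with its highest levels. Aldh1a1, the third retinal dehydrogenase, was lowest in both, with 2.94 and 2.79 RPKM against 4.53 to 25.0 in the others, and Aldh1a7, its neighbour and close relative, had 0.43 and 0.68 RPKM against 0.22 to 4.61.

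**Figure D3:**
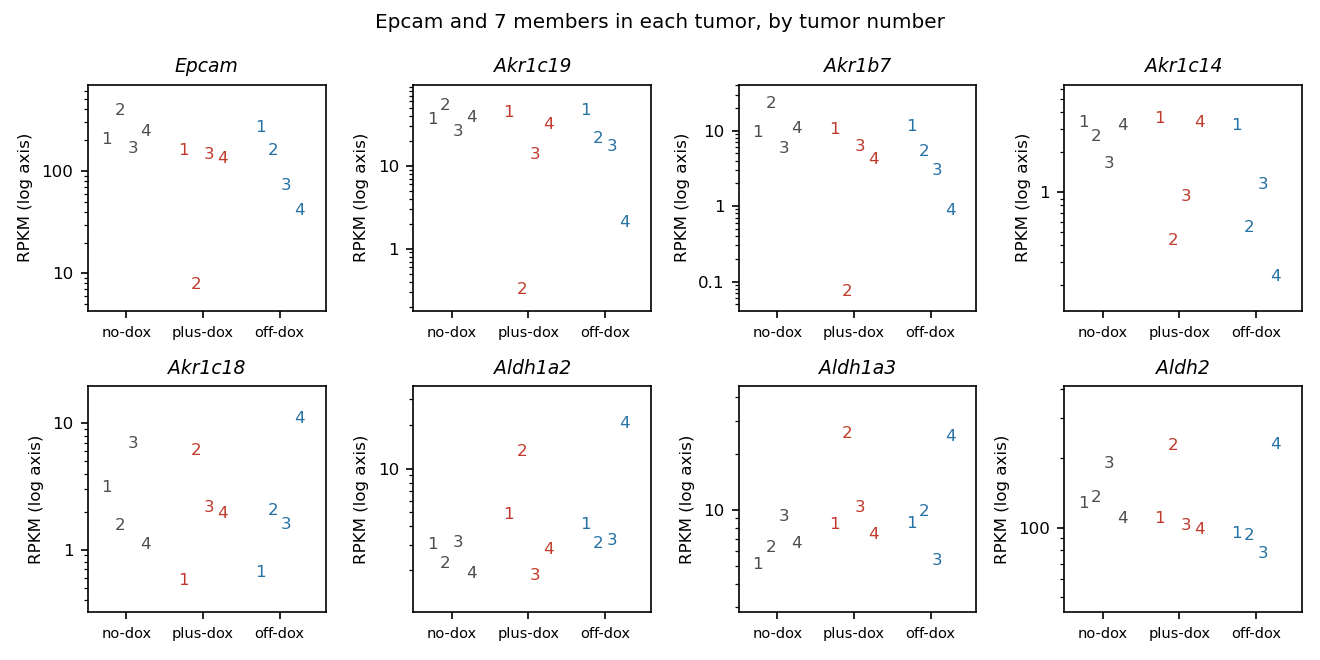
RPKM (log axes) of the epithelial marker Epcam and 7 members, with each tumor drawn as its number within its group. Plus-dox tumor 2 and off-dox tumor 4 are the lowest in Epcam, Akr1c19, Akr1b7 and Akr1c14 and the highest in Aldh1a2, Aldh1a3 and Aldh2.

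Neighbours on chromosome 13 went opposite ways. Akr1c18, which inactivates progesterone as a 20-alpha-hydroxysteroid dehydrogenase and lies between Akr1c14 and Akr1c19, had 6.06 RPKM in plus-dox tumor 2 and 11.0 in off-dox tumor 4. The remaining dox-exposed tumors held 0.57 to 2.15 RPKM of it, but no-dox tumor 3 also had 6.88 RPKM, against 1.10 to 3.12 in the other no-dox tumors. Akr1c12 was at 11.7 and 15.0 RPKM in the 2 tumors, against 5.78 to 12.3 in the others, and Akr1c13 at 31.5 and 51.4 against 25.7 to 54.7. Reads of Akr1c12 and Akr1c13 are hard to separate, since 28.5% and 25.4% of their 50-base stretches are shared. In all, 10 of the 33 expressed members (30.3%) had the 2 tumors as the 2 lowest of 12, against 15.6% of expressed genes, and 4 (12.1%) had them as the 2 highest, against 9.34%. The 2 tumors were set apart in part for their extremes in members. The shares of members are therefore a description and cannot be read against those of all genes. The 10 are Adh7, Akr1b7, Akr1b10, Akr1c14, Akr1c19, Akr1e1, Aldh1a1, Aldh3a2, Aldh3b1 and Aldh5a1, and the 4 are Aldh1a2, Aldh1a3, Aldh1b1 and Aldh2. Without these tumors, 7 of 37 members were lower without overlap in plus-dox against no-dox tumors (5.65% of all genes) and 11 in off-dox against no-dox tumors (9.22%), Adh5 and Akr1a1 among both, and none was higher (6.82% and 8.62%). In off-dox against plus-dox tumors 4 were then lower (4.16%) and 0 higher (3.1%). Aldh2, highest in the tumors left out, is among the lower members of each comparison, so these counts follow in part from that choice.

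**Figure D4:**
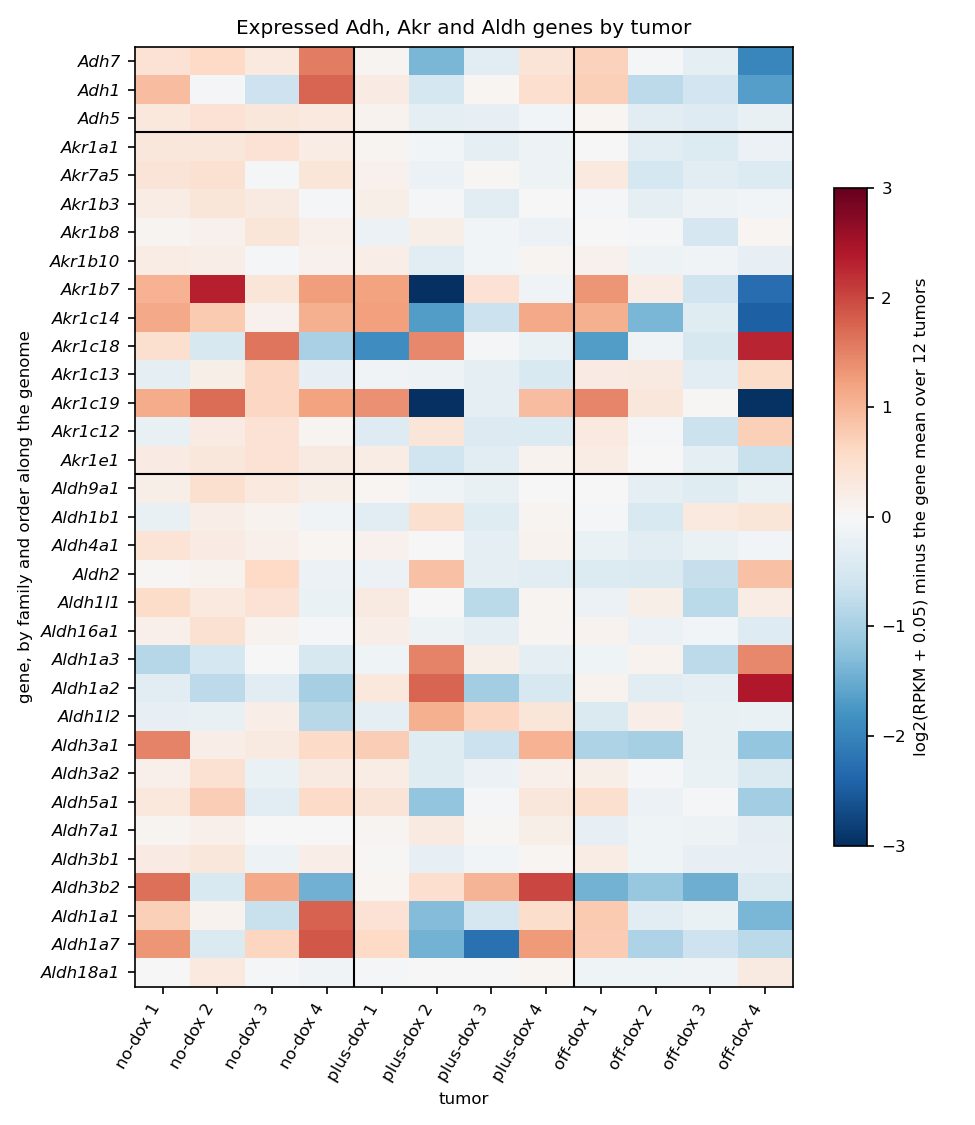
Log2(RPKM + 0.05) of the 33 expressed members minus the mean of each gene over the 12 tumors, with genes in rows by family and order along the genome and tumors in columns. Color runs from -3 (blue) to 3 (red). Columns plus-dox 2 and off-dox 4 hold the deepest blue in Akr1b7 and Akr1c19, and red in Akr1c18, Aldh1a2 and Aldh1a3.

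The levels of other cells and pathways are given beside these results. Of 12 epithelial markers, 10 had log2 fold changes below 0 in each comparison with no-dox tumors and 0 were called. Their summed level was 2363 to 3276, 1368 to 2126 and 1115 to 2784 RPKM without dox, with dox and after withdrawal, with all 12 detected. Krt8, a keratin of simple epithelia, had log2 fold changes of -0.74 ± 0.22 (SE) in both (adjusted p = 0.32 and 0.12, edgeR), and its partner Krt18 had -0.46 ± 0.21 and -0.32 ± 0.21 (SE; adjusted p = 0.37 and 0.40, edgeR). Above 0 were Cldn7 and Grhl2 in plus-dox and Cldn4 and Grhl2 in off-dox tumors. The part of the epithelial share in the members' differences was not tested. Host cell markers differed by type. Of 6 neutrophil, 8 T and NK cell and 10 skeletal muscle markers, 0 were below 0 in either comparison with no-dox tumors. The adipocyte markers had 8 and 9 of 9 below 0 in plus-dox and off-dox tumors, and the fibroblast markers 2 and 7 of 11. Macrophage markers had 3 of 8 below 0 in each, and endothelial markers 0 and 2 of 7. Of all genes, 1.03% were called higher in off-dox against no-dox tumors. Of 6 neutrophil markers, Cxcr2 and Csf3r were called higher in off-dox against no-dox tumors, and the 6 summed to 22.8 to 34.8, 33.6 to 56.7 and 23.9 to 49.4 RPKM without dox, with dox and after withdrawal. Of 8 T and NK cell markers, Cd4 and Nkg7 were called higher in the same comparison, with sums of 4.28 to 7.91, 7.70 to 16.4 and 7.88 to 21.7 RPKM. The NSG hosts are immunocompromised, and Cd3e, Cd3d and Cd8a did not exceed 0.149, 0.321 and 0.195 RPKM in any tumor. Which cells gave the Cd4 and Nkg7 reads was not tested. Of 10 skeletal muscle markers Actn3 was called higher in off-dox against no-dox tumors, with sums of 11.6 to 198, 166 to 498 and 13.7 to 1400 RPKM. None of the fibroblast, adipocyte, macrophage and endothelial markers (11, 9, 8 and 7 genes) was called in any of the 3 comparisons by edgeR. The fibroblast markers summed to 1243 to 2244, 1752 to 3290 and 1430 to 1644 RPKM and the adipocyte markers to 14.5 to 1121, 26.4 to 708 and 35.7 to 327 RPKM. Macrophage markers were at 1002 to 1362, 1015 to 1267 and 937 to 1604 RPKM and endothelial markers at 34.5 to 51.6, 42.2 to 139 and 37.6 to 59.4 RPKM. The part of host cells in the members' differences was not tested.

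Of 15 genes of the NRF2 pathway, which controls several Akr and Aldh genes, 14 were below 0 in plus-dox and 12 in off-dox against no-dox tumors, and 0 were called in either. Taldo1, a pentose phosphate enzyme, had log2 fold changes of -0.47 ± 0.13 (SE) in both (adjusted p = 0.32 and 0.095, edgeR). Nqo1, a standard NRF2 target, had -0.14 ± 0.44 and -0.03 ± 0.44 (SE). Of 9 genes listed for glutathione and formaldehyde metabolism, the surroundings of Adh5, 9 and 8 were below 0 and 0 were called. Fdx1, counted in both, is a ferredoxin and not a gene of that metabolism (log2 fold changes -0.39 ± 0.21 and -0.54 ± 0.21 SE). Esd, which hydrolyses the product of Adh5, had -0.15 ± 0.16 and 0.06 ± 0.16 (SE; adjusted p = 0.66 and 0.87, edgeR), and Glo1, which removes methylglyoxal, had -0.31 ± 0.11 and -0.39 ± 0.11 (SE; adjusted p = 0.33 and 0.097, edgeR). Of 12 carbonyl reductases outside these families, 8 and 12 were below 0 and 0 were called. Of 18 genes for retinoid supply, breakdown and signaling, 3 and 7 were below 0 and 0 were called.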

How the data were processed

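The authors mapped 50-base single-end reads of unstranded poly(A) libraries to mm9 with TopHat 1.4.1 and counted them on unambiguous exonic spans of RefSeq genes. The deposited files hold, per gene, an expected count, of which 58.2% differ from a whole number by over 0.01, and the authors' RPKM. How reads with several positions were handled is not given in the sources used here.

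Counts were rounded and tested with edgeR 4.0.16 in R 4.3.3 (TMM, quasi-likelihood test, 12 tumors in 1 fit, no covariates) over 17561 genes with at least 10 counts in all, with Benjamini-Hochberg adjustment. A gene was called at an adjusted p under 0.1, over 1.5-fold, a mean RPKM over 0.25 and a length over 250 bp. These are the limits of the study, which applied them with DESeq2 rather than edgeR. DESeq2 1.42.0 and the other settings named in the closing section were alternatives. Log2 CPM used a prior count of 2. Scripts were tested on simulated data.

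Members and lists were chosen with earlier results of these data known. Described in full are Adh5, Akr1a1, the 3 most abundant expressed members per family, those called or without overlap, the 5 with the largest SD at a mean of at least 1 RPKM, and 6 picked for their role. CG and motif counts and shared 50-base stretches are exact matches to RefSeq promoters and GENCODE transcripts. An item of the genotype is not reported here.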

Additional observations from a re-analysis of the deposited data

Results flagged for a closer look

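In each group of 4 tumors, the gap of the highest or lowest tumor to its nearest neighbour was divided by the range of the group. This ratio exceeded Dixon's 95% critical value in 9 of 84 groups. Chance alone passes that value in about 1 of 20 groups, but the genes were in part chosen for their spread in these data. The 9 groups therefore cannot be read against that rate. Plus-dox tumor 2 was highest with 0.978 for Akr1c12, 0.838 for Aldh1a3 and 0.913 for Aldh2. Off-dox tumor 4 was highest with 0.866 for Akr1c18, 0.937 for Aldh1a2 and 0.889 for Aldh2. No-dox tumor 4 was highest with 0.839 for Adh7. Off-dox tumor 1 was highest with 0.887 for Aldh1a7 and 0.833 for the summed Adh level.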

How the results depend on the processing

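In off-dox against no-dox tumors, where 235 genes and 1 member were called, the number of genes was 0 at an adjusted p under 0.05, 396 and 615 in DESeq2 with and without moderated fold changes, 122 without a filter on counts, 365 with at least 10 counts in every tumor, 3 in a fit of the 8 tumors alone and 471 without plus-dox tumor 2 and off-dox tumor 4. Members called were 0 at the stricter p, without the filter and in the 8 tumors alone, and 2 without the 2 tumors. In plus-dox against no-dox tumors DESeq2 called 90 and 128 genes, and 7 members were lower without overlap when the 2 tumors were left out (5.65% of all genes). In off-dox against plus-dox tumors DESeq2 called 4 and 6 genes, and 4 members were lower without overlap without the 2 tumors (4.16% of all genes).

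Replicate numbers did not pair the tumors. Tumors of the same number deviated together with a mean r of -0.088 (-0.449 to 0.566 over 12 pairs), and the best match had the own number in 3 of 24 cases. With a replicate block the off-dox against no-dox calls were 0 genes and 0 members, and 0 in the other comparisons.

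Leaving out 1 tumor at a time gave 0 to 3 genes, 4 to 7 members lower and 0 to 1 higher without overlap in plus-dox against no-dox, 0 to 789 genes, 0 to 5 members called, 9 to 17 lower and 0 to 1 higher in off-dox against no-dox, and 0 to 1 genes, 2 to 4 members lower and 0 to 1 higher in off-dox against plus-dox tumors. Without off-dox tumor 1, 789 genes and 5 members were called (Aldh3a1, Adh1, Akr7a5, and Adh5 and Akr1a1, for which no test is given) and 17 were lower without overlap. Genes called were 208 and 352 without plus-dox tumors 1 and 2, 19 without plus-dox tumor 3, and 0 or 1 without each of the others. Lower members in plus-dox against no-dox were 7 without no-dox tumor 3 or 4 or plus-dox tumor 2. Aldh3b2 in plus-dox against no-dox tumors went from 0.46 to -0.067 without plus-dox tumor 4 (range -0.067 to 1.09). Aldh2 in off-dox against no-dox tumors went from -0.15 to 0.053 without no-dox tumor 3 and to 0.03 without off-dox tumor 3 (range -0.66 to 0.053). The cause was not tested. Of the log2 fold changes and summed levels recomputed, 628 were counted as unchanged, 3 became called, 14 lost the call and 3 reversed. Unchanged means the same direction and side of the limits for a log2 fold change, while summed levels have no call. Adh5 and Akr1a1 are in the tally as a description only. The numbers of genes and members called, and of members without overlap, are not in that tally. Of these, 54 moved from the main value by more than a set ratio and 156 did not.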
